A study of Mus musculus with 4 samples.

Results

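Integrins, selectins and other adhesion molecules were examined in RNA-seq libraries of small intestinal ILC3s with and without Brg1, the ATPase of the BAF chromatin-remodeling complex encoded by Smarca4. The set was chosen by gene symbol. It held 40 genes, found in 41 of the 53379 gene entries of the deposited table, since Itgam had a second entry. All libraries came from mixed bone marrow chimeras, made by transferring marrow cells of the donors, mixed in equal numbers, into Rag2-/-Il2rg-/- hosts given sublethal irradiation, which lack lymphocytes and ILCs of their own but keep myeloid cells. Brg1-sufficient ILC3s (2 libraries) descended from Thy1.2 Rag1-/-Smarca4 f/f donors and were sorted as Thy1.2high Thy1.1- CD45low cells after 6 to 7 weeks. Brg1-deficient ILC3s (2 libraries) descended from Thy1.1 Thy1.2 Rag1-/-Smarca4 f/f donors that also carried a Cre transgene, and were sorted as Thy1.2high Thy1.1+ CD45low cells. Both groups therefore lacked Rag1 and carried the floxed allele. They differed in the Cre transgene and in the Thy1.1 marker. The age of the mice, and whether animals were pooled for a library, are not given in the sources used here.

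Integrins are heterodimers of an alpha and a beta chain that hold cells to matrix proteins or to ligands on other cells. In gut lymphocytes, the beta7 chain pairs with alpha4 to bind MAdCAM-1 on mucosal vessels, and with alphaE to bind E-cadherin on epithelium, while alphaL and beta2 form LFA-1, the receptor of ICAMs. Selectins bind sialylated glycans, among them those on PSGL-1, the product of Selplg. Kindlins and talin bind the beta tail and switch integrins to a state of high affinity.

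Smarca4 gave 17.1 and 16.7 FPKM (fragments per kilobase of transcript, scaled to the mapped fragments of a library) with Brg1 and 9.98 and 9.03 FPKM without it, with no overlap and a mean 56.2% of the Brg1-sufficient mean. The sorted FPKM values were nearly equal in the 4 libraries, differing by less than 1% at 99.3% of the ranks with a mean above 1, so these values cannot show whether total RNA differed. Read counts were not used here and depth is unknown. Log2(FPKM + 1) values were compared by limma for 14739 genes, those whose mean exceeded 1 FPKM with or without Brg1. Fold changes on this scale understate those of low genes. With 2 libraries against 2, a two-sided exact permutation test of one gene cannot give a p below 0.333, so every p depends on the variance limma pools over genes. A second, looser rule took the criteria that the study's methods give for the genes used in its gene ontology analysis, and is called the list criteria below. For significant change the methods ask for an adjusted p under 0.05 and a mean above 1 FPKM, as in the first rule. Its conditions are p under 0.05, adjusted p under 0.4, a ratio of means beyond 1.41 and one group mean or both over 5 FPKM. In such bulk libraries, fewer cells of one type and less RNA per cell cannot be told apart.

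Of the 41 entries, 25 passed the filter and 16 had a mean FPKM of 1 or less in both groups. No adhesion gene had a limma p under 0.05 after Benjamini-Hochberg adjustment, in either direction, where 0.224% of all genes tested were lower and 0.0814% higher. The count was also 0 in limma without its trend. At an unadjusted p under 0.05, 4 adhesion genes were lower (6.47% of all genes tested) and 2 were higher (6.12%). By the list criteria, Itgav, Itga4 and Itgb1 were lower and Itgb4 was higher in Brg1-deficient ILC3s. These are 3 and 1 of the 16 genes with a mean FPKM above 5, beside 7.08% lower and 6.25% higher among all 9095 genes at that level. All 4 are integrin chains, as are 9 of the 16 genes of the set at that level. Both libraries of one group lay above both of the other in 18 of the 25 tested entries, 10 lower (20.2% of all genes tested) and 8 higher (24.4%), where 44.6% of all genes tested were separated in this way. Above 5 FPKM it was 12 of 16, 6 lower (20.9% of all genes at that level) and 6 higher (25.4%), where the share in both directions was 46.3%. The median log2 fold change was -0.15 over the tested adhesion genes and 0.03 over all genes tested. Itga1, Itga2, Itgam and Itgae passed the filter only through the group where they were higher. No adhesion gene met the criteria without Brg1-deficient library 2, while without Brg1-deficient library 1 only Itgav of the 4 did, joined by Icam1. Itgb4 was kept without either Brg1-sufficient library, Itgb1 only without the second of them, and Itga4 in none of the 4 fits that left out a library. Without the filter on low FPKM, Itga4 and Itgb1 no longer met the criteria, and Itgb1 also did not in limma without its trend.

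**Figure D1:**
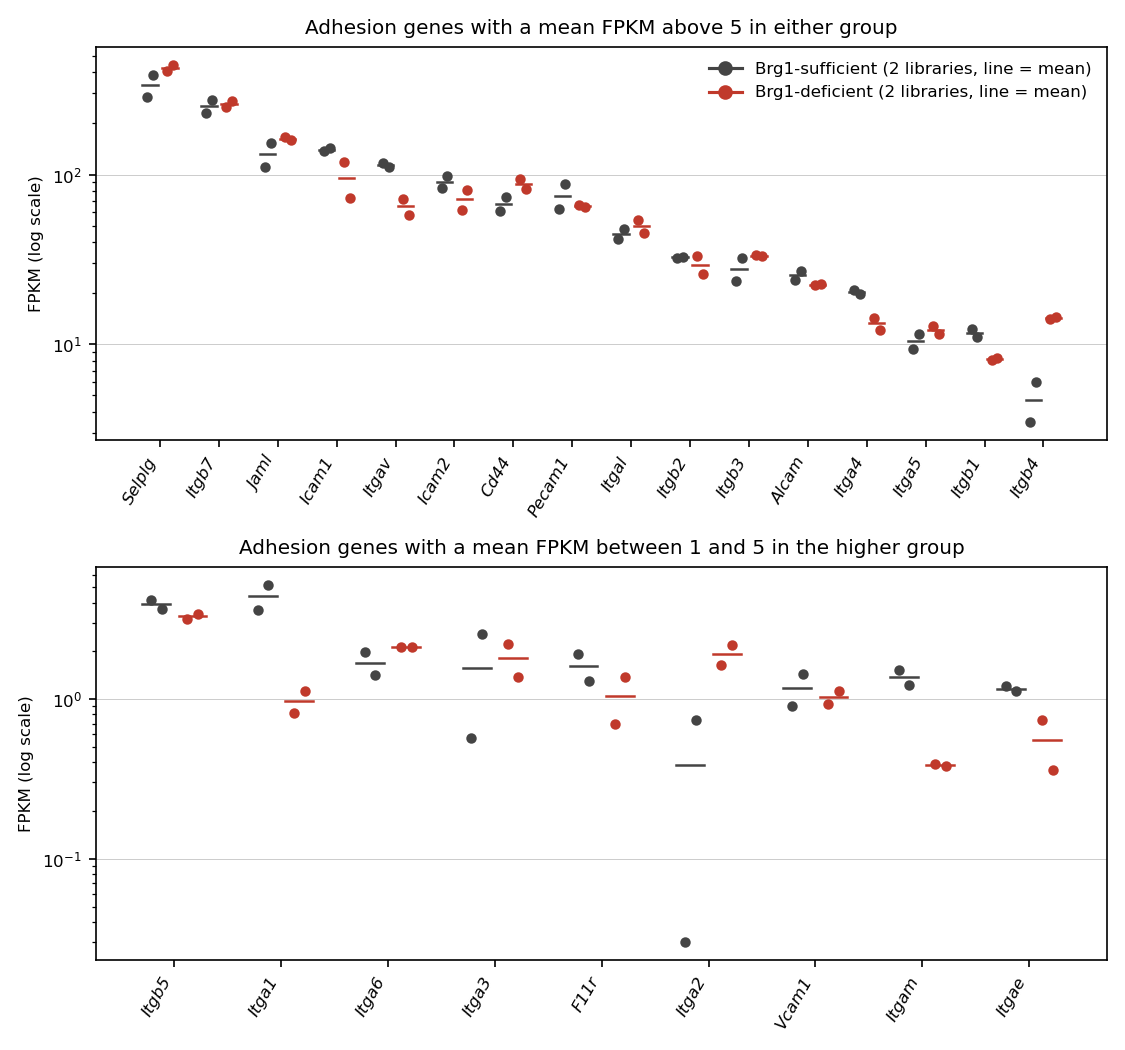
FPKM (log axis) of the adhesion genes with a mean above 5 in either group (upper plot) and between 1 and 5 in the higher group (lower plot), ordered by their mean. Points are the 2 libraries of each group and lines their means. Itgb4 stands out in the upper plot with both Brg1-deficient libraries, at 14.0 and 14.5, above both Brg1-sufficient ones, at 3.48 and 5.96.

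Itgav, on chromosome 2 from 83724397 to 83806916 of GRCm38, encodes the alphaV chain, which pairs with several beta chains to bind RGD motifs in matrix proteins and in latent TGF-beta. It was the most abundant alpha chain in every library, at 117 and 111 FPKM with Brg1 and 71.6 and 58.0 FPKM without it. The groups did not overlap. The Brg1-deficient mean was 57% of the other, and the log2 fold change was -0.81 ± 0.159 (SE, adjusted p = 0.133 from limma). An antisense-strand transcript that overlaps Itgav, Gm13684, was at 23.8 and 17.2 FPKM in Brg1-sufficient and at 12.1 and 9.67 FPKM in Brg1-deficient libraries. Whether strand was used in counting is not given in the sources used here, so reads of the overlapping transcripts cannot be told apart.

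Itga4, on chromosome 2 from 79255426 to 79333123, encodes the alpha4 chain of the gut-homing integrin. It was at 20.8 and 19.8 FPKM with Brg1 and 14.4 and 12.2 FPKM without it, again without overlap (log2 fold change -0.58, SE 0.167, adjusted p = 0.259 from limma). Cerkl overlaps it on the other strand and was at 2.04 to 6.21 FPKM, highest in Brg1-deficient library 2. Itgb1, on chromosome 8 from 128685654 to 128733200, encodes the beta1 chain, the partner of most matrix-binding alpha chains. It was at 12.3 and 11 FPKM with Brg1 and 8.11 and 8.25 FPKM without it, with a log2 fold change of -0.46 ± 0.172 (SE, adjusted p = 0.368 from limma). Its groups were apart by less than those of Itgav and Itga4, and its p was the nearest to the limit of the 4.

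The promoters of these 3 lower chains are shown with that of Itgb7, the most abundant beta chain, as a chain with overlapping groups. RefSeq promoter sequences on GRCm38.p6 were matched by symbol for 26 of the 40 genes, each with 250 bases before and 50 after a start site. Those of Itgav (chr2:83724147-83724446), Itga4 (chr2:79255176-79255475) and Itgb1 (chr8:128685404-128685703) are on the plus strand, and that of Itgb7 (chr15:102231886-102232185) is on the minus strand. Capitals mark matches, on either strand, to the motifs of RUNX (TGTGGT), AP-1 (TGANTCA), T-box factors (GGTGTGA), ETS factors (CCGGAAG) and the GC box (GGGCGG).
Itgav: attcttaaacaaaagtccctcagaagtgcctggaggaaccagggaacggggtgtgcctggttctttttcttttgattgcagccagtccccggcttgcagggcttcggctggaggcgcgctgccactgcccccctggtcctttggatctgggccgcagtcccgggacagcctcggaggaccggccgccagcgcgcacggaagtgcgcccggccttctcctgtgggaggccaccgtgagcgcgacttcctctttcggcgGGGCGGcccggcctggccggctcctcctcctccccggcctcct
Itga4: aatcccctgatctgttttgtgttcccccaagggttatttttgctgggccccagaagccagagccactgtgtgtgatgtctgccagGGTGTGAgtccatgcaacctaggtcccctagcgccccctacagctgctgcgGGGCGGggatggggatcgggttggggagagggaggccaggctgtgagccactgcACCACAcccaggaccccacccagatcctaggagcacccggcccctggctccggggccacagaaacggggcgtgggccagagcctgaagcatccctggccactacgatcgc
Itgb1: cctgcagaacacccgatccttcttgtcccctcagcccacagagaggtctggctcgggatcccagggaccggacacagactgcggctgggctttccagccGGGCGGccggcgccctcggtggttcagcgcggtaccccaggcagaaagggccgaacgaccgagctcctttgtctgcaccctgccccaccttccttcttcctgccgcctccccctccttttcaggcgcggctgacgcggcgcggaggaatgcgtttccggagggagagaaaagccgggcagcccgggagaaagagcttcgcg
Itgb7: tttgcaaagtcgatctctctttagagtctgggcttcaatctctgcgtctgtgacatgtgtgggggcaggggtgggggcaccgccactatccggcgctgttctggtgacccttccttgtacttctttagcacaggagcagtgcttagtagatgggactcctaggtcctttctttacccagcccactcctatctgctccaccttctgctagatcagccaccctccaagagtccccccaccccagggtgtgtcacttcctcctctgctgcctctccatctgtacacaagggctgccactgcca
Itga4 held 1 RUNX match, 1 T-box match and 1 GC box, and Itgav and Itgb1 held 1 GC box each. The Itgb7 promoter held no match. Among the 32851 promoters of the table, 16.8% held the RUNX letters, 4.0% the T-box letters, 35.7% the GC box, 7.8% AP-1 and 8.9% ETS. No matches of different motifs overlapped in the 4 promoters. GC content was 67.3% for Itgav and Itgb1, 64.3% for Itga4 and 56.3% for Itgb7.

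Itgb4, on chromosome 11 from 115974709 to 116008412, encodes the beta4 chain, which pairs only with alpha6 and is best known from the hemidesmosomes of epithelium. It was at 3.48 and 5.96 FPKM with Brg1 and 14.0 and 14.5 FPKM without it, a 3.02-fold higher mean (log2 fold change 1.45, SE 0.260, adjusted p = 0.112 from limma). It passed the limit of 5 FPKM only through the Brg1-deficient group. Its partner Itga6 was at 1.96 and 1.41 FPKM with Brg1 and at 2.11 in both Brg1-deficient libraries (log2 fold change 0.22, adjusted p = 0.783 from limma). The ratio of Itgb4 to Itga6 was thus 1.78 and 4.23 in the former and 6.65 and 6.86 in the latter. Of 8 epithelial marker genes, Lgals4 was at 6.34 and 4.67, then at 3.71 and 5.73 FPKM, which overlapped. Epcam was at 1.5 and 1.79, then at 0.68 and 0.54 FPKM, with the Brg1-deficient libraries lower. Krt18, a keratin gene that was higher by the list criteria, was at 2.02 and 3.48 FPKM in Brg1-sufficient and at 15.7 and 12.9 FPKM in Brg1-deficient libraries, and Krt8 was at 0.44 and 0.38, then at 2.65 and 2.34 FPKM. The summed level of the 8 genes was 11.1 and 11.4 FPKM, then 24.4 and 22.1 FPKM, and 4 of them (Krt19, Vil1, Cdh17 and Fabp2) stayed under 1 FPKM in every library. The part of these genes in the Itgb4 difference was not tested.

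**Figure D2:**
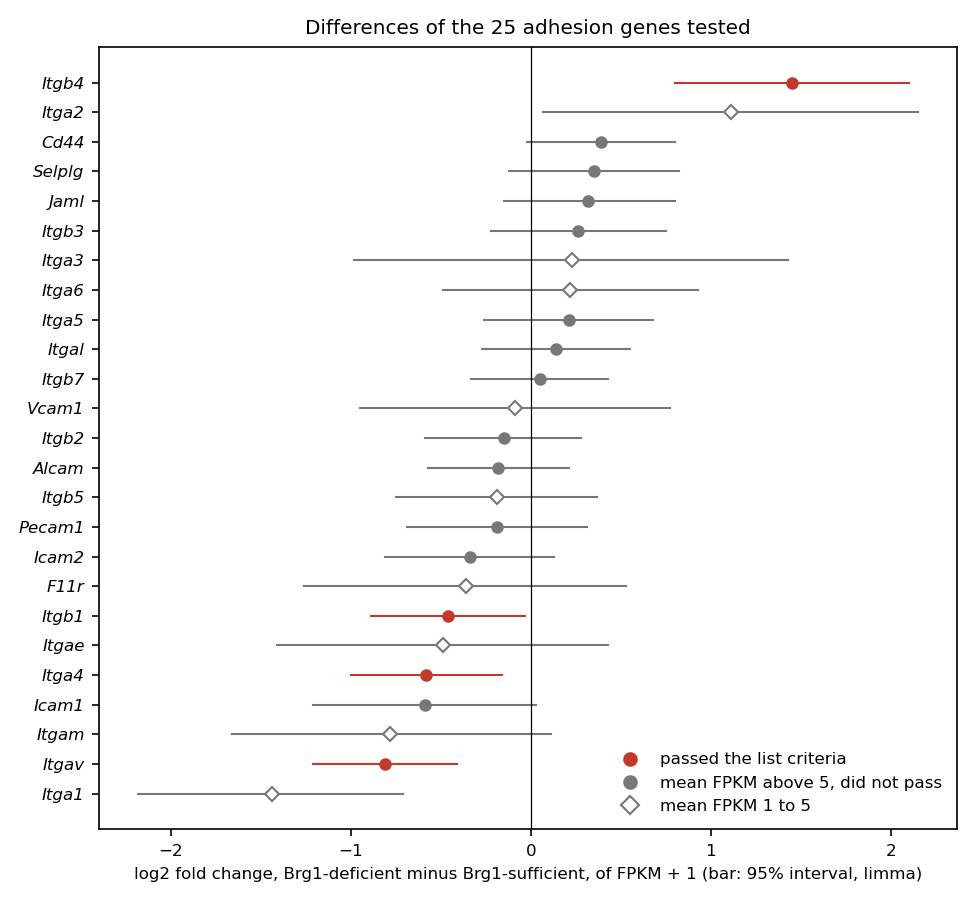
Log2 fold change of FPKM + 1 (Brg1-deficient minus Brg1-sufficient) for the 25 tested adhesion genes, with the 95% interval from limma. Red marks the 4 genes that met the list criteria, filled circles a mean FPKM above 5 and open diamonds a mean of 1 to 5. Itgb4 is highest at 1.45 and Itga1 lowest at -1.44.

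Among collagen and laminin receptor alpha chains, none reached a mean FPKM of 5. Itga1, the alpha1 chain (CD49a) known from ILC1s and tissue-resident lymphocytes, was at 3.62 and 5.19 FPKM with Brg1 and 0.82 and 1.12 FPKM without it. The groups did not overlap, and the log2 fold change was -1.44 ± 0.291 (SE, adjusted p = 0.142 from limma). Without Brg1-sufficient library 1 it met the list criteria. Of 10 markers of ILC1s and NK cells, 8 were tested. By the list criteria Tbx21, Ifng, Ncr1 and Xcl1 were lower and Gzma was higher, beside 4.37% lower and 3.85% higher among all genes tested. Klrb1c was at 18.2 and 21.2 FPKM with Brg1 and 17.4 and 20.4 FPKM without it. The part of these markers in the Itga1 difference was not tested. Genes of other transcripts lie within Itga1 on the same strand, of which Gm49395 was at 2.14 and 1.11, then at 0.88 and 0 FPKM. Itga2, the alpha2 chain (CD49b) used as an NK cell marker, was at 0.03 and 0.74 FPKM with Brg1 and 1.63 and 2.18 FPKM without it (log2 fold change 1.11, SE 0.413, adjusted p = 0.367 from limma). Itga3 ranged from 0.57 to 2.56 FPKM, with both extremes in the Brg1-sufficient group. Itga7, Itga10 and Itga11 stayed at or under 0.63 FPKM, as did Itga8 and Itga9, alpha chains of other matrix receptors.

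The share of each chain was set against the summed FPKM of its kind, since FPKM is per length of transcript and allows levels of genes to be compared. These are shares of mRNA and not of protein. Among alpha chains, Itgav made up 58.4% and 54.1% of the sum in Brg1-sufficient libraries and 43.8% and 42.4% in Brg1-deficient libraries. Itgal, the alphaL chain of LFA-1, made up 21% and 23.3%, then 32.9% in both. Its own level overlapped between the groups, at 41.8 and 47.7 and at 53.9 and 45.1 FPKM (log2 fold change 0.14, 95% interval -0.27 to 0.55), and the summed alpha chain level was 199 and 205 FPKM, then 164 and 137 FPKM. The order in Brg1-sufficient ILC3s was Itgav, Itgal, Itga4, Itga5 and Itga1, with no overlap between neighbours. In Brg1-deficient ILC3s, Itga4 and Itga5 overlapped, the latter at 12.8 and 11.5 FPKM after 9.37 and 11.5 FPKM in the controls.

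Among beta chains, Itgb7 made up 74.9% and 75.9% of the summed FPKM in Brg1-sufficient libraries and 72.9% and 76.0% in Brg1-deficient libraries. It was at 231 and 274 FPKM, then at 249.7 and 271 FPKM (log2 fold change 0.05, 95% interval -0.33 to 0.43, adjusted p = 0.914 from limma), and the groups overlapped. Itgb2, the common chain of the leukocyte integrins, was at 32.4 and 32.9 FPKM, then at 33.1 and 25.8 FPKM, and also overlapped (log2 fold change -0.15, 95% interval -0.59 to 0.28). Itgb3 was at 23.6 and 32.2 FPKM, then at 33.7 and 33.0 FPKM, which separated the groups by less than its spread among controls (log2 fold change 0.26, 95% interval -0.22 to 0.75). Itgb2 and Itgb3 came after Itgb7 and overlapped each other in Brg1-deficient ILC3s. Itgb4 went from 1.13% and 1.65% of the beta chain sum to 4.10% and 4.06%, above the 2.37% and 2.31% of Itgb1 in the same libraries. Itgb5 stayed between 3.18 and 4.17 FPKM. Itgb6 and Itgb8 stayed at or under 0.74 FPKM.

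**Figure D3:**
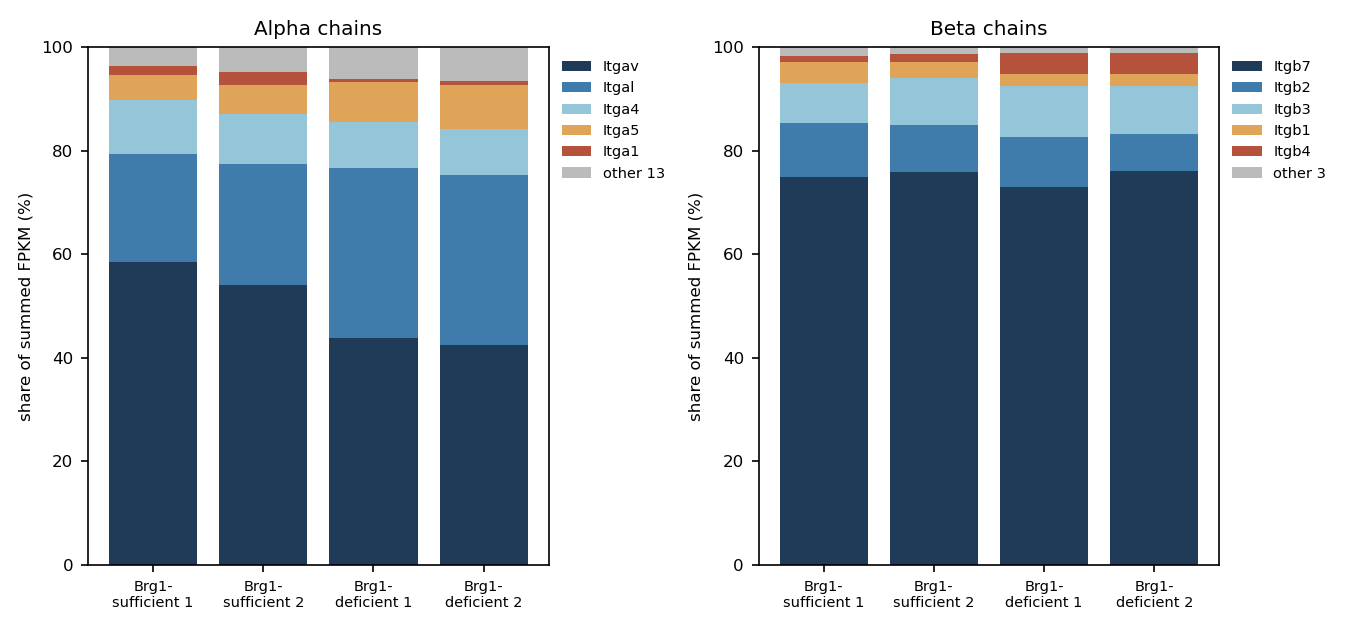
Share of each chain in the summed FPKM of alpha chains (left, 18 genes) and beta chains (right, 8 genes) in the 4 libraries. Itgav takes 58.4% and 54.1% of the alpha chain sum in Brg1-sufficient libraries and 43.8% and 42.4% in Brg1-deficient libraries, while Itgb7 takes 72.9% to 76.0% of the beta chain sum in all 4.

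Ratios of the FPKM of chains that pair were taken within each library. Itgav to Itgb3 was 4.94 and 3.44 in Brg1-sufficient ILC3s and 2.13 and 1.76 in Brg1-deficient ILC3s. Itga4 to Itgb7 was 0.0902 and 0.0721, then 0.0575 and 0.0450. Itga4 to Itgb1 overlapped, at 1.69 and 1.79 against 1.77 and 1.48, both chains being lower in Brg1-deficient ILC3s. Itgal to Itgb2 was 1.29 and 1.45, then 1.63 and 1.74. None of these ratios was tested.

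The other leukocyte alpha chains were low. Itgae, the alphaE chain (CD103), was at 1.2 and 1.12 FPKM, then at 0.74 and 0.36 FPKM (log2 fold change -0.49, adjusted p = 0.625 from limma). The main entry of Itgam, the alphaM chain (CD11b) of myeloid cells, was at 1.52 and 1.23 FPKM, then at 0.39 and 0.38 FPKM (log2 fold change -0.78, adjusted p = 0.457 from limma). Its second entry has the symbol Itgam in the deposited values but is named Gm49368 in the GENCODE M21 annotation. It covers nearly all of the main entry on the same strand and runs past its end, to 128128160 against 128118491 on chromosome 7. It stayed at or under 0.46 FPKM, and the split of reads between the 2 entries is uncertain. Itgax reached 1.01 FPKM in 1 library and Itgad stayed at or under 0.28 FPKM.

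Selplg, which encodes PSGL-1, was the most abundant adhesion gene of the set. It was at 285 and 387 FPKM with Brg1 and 406 and 442 FPKM without it, apart by less than the spread of the controls (log2 fold change 0.35, 95% interval -0.12 to 0.82, adjusted p = 0.517 from limma). It met the list criteria without Brg1-sufficient library 2. The endothelial selectin genes Sele and Selp stayed at or under 1 FPKM.

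Of the 8 genes of the immunoglobulin superfamily, 5 had a mean FPKM above 5 and none met the list criteria. Icam1, a ligand of LFA-1, was at 137 and 144 FPKM with Brg1 and 119 and 72.8 FPKM without it (log2 fold change -0.59, 95% interval -1.21 to 0.03, adjusted p = 0.419 from limma). The difference went from -0.24 without Brg1-deficient library 2 to -0.94 without Brg1-deficient library 1, and met the list criteria in the latter of these cases. Icam2, another LFA-1 ligand, was at 82.9 and 97.8 FPKM, then at 61.9 and 81.2 FPKM. Jaml, a junctional adhesion molecule that binds CAR on epithelium, was at 111 and 152 FPKM, then at 165 and 160.3 FPKM (log2 fold change 0.32, adjusted p = 0.552 from limma), and met the list criteria without Brg1-sufficient library 2. Pecam1 overlapped between the groups, at 62.3 and 87.9 against 65.7 and 64.0 FPKM. Alcam, a ligand of CD6, was at 24.0 and 27.2, then at 22.3 and 22.6 FPKM. The groups were apart for Icam1, Icam2 and Alcam, which were lower, and for Jaml, which was higher. Among all genes with a mean above 5 FPKM, 46.3% were separated in one direction or the other. None of these 4 differences met the list criteria with all 4 libraries and no block for replicate numbers. F11r, which encodes JAM-A, and Vcam1 lay between 0.70 and 1.91 FPKM. Madcam1 stayed at or under 0.56 FPKM.

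Cd44, the hyaluronan receptor, was at 60.7 and 73.3 FPKM with Brg1 and 93.7 and 82.1 FPKM without it. The groups did not overlap (log2 fold change 0.39, 95% interval -0.02 to 0.80, adjusted p = 0.417 from limma). The cadherin genes Cdh1 and Cdh5 reached at most 0.56 and 0.29 FPKM. Of 8 endothelial markers, 6 stayed under 1 FPKM in every library, and their summed level was 3.95 and 7.55 FPKM, then 4.41 and 5.54 FPKM. Of 6 megakaryocyte and platelet markers, 5 stayed under 1 FPKM, while Pf4 was at 3.15 and 5.85, then at 3.55 and 8.02 FPKM. Itga2b, the platelet alpha chain, was at 0.40 to 0.70 FPKM.

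Genes that act with these receptors were taken from 4 further lists of 80 genes, of which 62 were tested. At an adjusted p under 0.05 from limma, Fyb, Fermt2 and Cd81 were lower and none was higher, beside 0.224% lower and 0.0814% higher among all genes tested. By the list criteria 10 were lower and 2 higher of the 48 with a mean above 5 FPKM, beside 7.08% and 6.25% of all genes at that level. Of the 45 genes of integrin activation and the adhesome (proteins that link integrin tails to actin), 39 were tested, 6 were lower and 1 higher by the list criteria. Their median log2 fold change was 0.13. No gene of these lists kept an adjusted p under 0.05 when a library was left out, whichever it was, nor without the filter on low FPKM or the trend of limma.

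Fermt2, which encodes kindlin-2, fell from 50.6 and 41.8 FPKM to 6.96 and 10.1 FPKM, or 18.5% of the Brg1-sufficient mean (log2 fold change -2.32, SE 0.223, adjusted p = 0.0386 from limma). Fermt3, which encodes kindlin-3, the form of blood cells, was at 46.5 and 63.8, then at 51.1 and 53.1 FPKM (log2 fold change -0.06, 95% interval -0.54 to 0.42). The ratio of Fermt2 to Fermt3 was 1.09 and 0.655 in Brg1-sufficient ILC3s and 0.136 and 0.190 in Brg1-deficient ILC3s. Tln1, the talin gene, overlapped between the groups at 24.8 and 44.7 and at 35.9 and 29.7 FPKM. Fermt3 and Tln1 were singled out after their values were seen.

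Fyb, which encodes ADAP, an adaptor that couples immune receptors to LFA-1 activation, fell from 52.4 and 41.3 FPKM to 6.76 and 9.69 FPKM (log2 fold change -2.38, SE 0.228, adjusted p = 0.0386 from limma). Its binding partner Skap1 was higher by the list criteria, at 97.0 and 98.0 FPKM, then at 167 and 169 FPKM (log2 fold change 0.78, SE 0.126, adjusted p = 0.0995 from limma). The libraries of each group lay close together for Skap1 and far from the other group. Parvg, a parvin of blood cells that binds the integrin-linked kinase, was at 52.2 and 55.7 FPKM, then at 32.7 and 21 FPKM (log2 fold change -1.01, adjusted p = 0.181 from limma). Fyn, a Src family kinase, was at 14.6 and 11, then at 6.37 and 3.91 FPKM (log2 fold change -1.18, adjusted p = 0.181 from limma). The GTPase gene Rap1a, which drives integrin activation, was at 33.5 and 40.9, then at 22.8 and 27.0 FPKM (log2 fold change -0.56, adjusted p = 0.304 from limma). Rasgrp2, an exchange factor for Rap1 that passed 5 FPKM only through the Brg1-sufficient group, was at 17.6 and 5.60, then at 1.56 and 4.18 FPKM. Its difference of -1.61 on the log2 scale became -0.86 without Brg1-sufficient library 1.

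**Figure D4:**
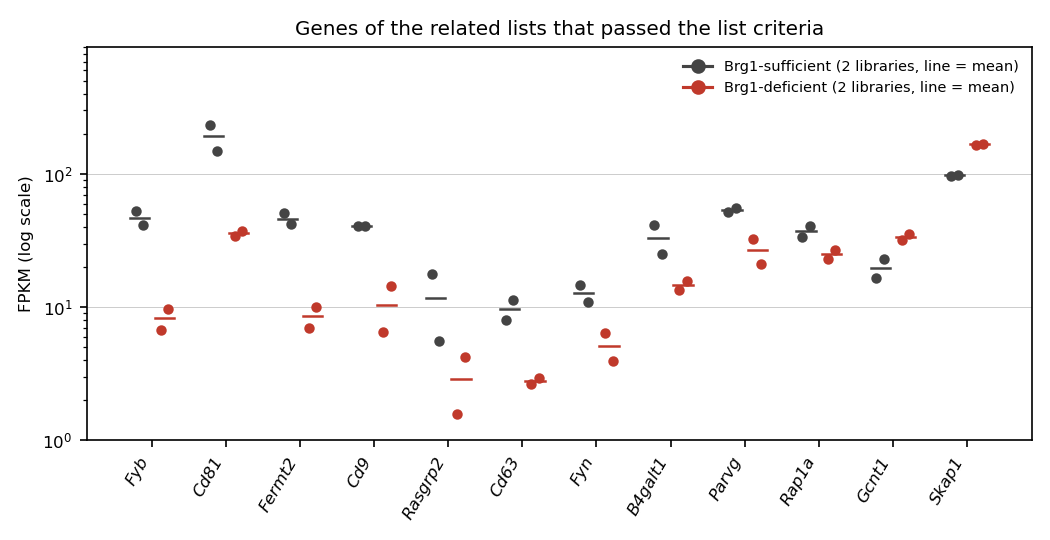
FPKM (log axis) of the 12 genes of the related lists that met the list criteria, ordered by log2 fold change. Points are the 2 libraries of each group and lines their means. Fyb, Cd81 and Fermt2 are lower in both Brg1-deficient libraries, with an adjusted p under 0.05, and Skap1 and Gcnt1 are higher.

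Tetraspanins are membrane proteins that gather integrins in the plane of the membrane. All 8 of the list were tested, 7 of them with a mean above 5 FPKM. By the list criteria 3 were lower, beside 7.08% of all genes at that level, and the median log2 fold change of the 8 was -0.22. Cd81 fell from 233 and 149.7 FPKM to 34.0 and 37.6 FPKM (log2 fold change -2.35, SE 0.236, adjusted p = 0.0427 from limma). Cd9 was at 40.4 and 40.6 FPKM, then at 6.48 and 14.4 FPKM (log2 fold change -1.95, SE 0.350, adjusted p = 0.112 from limma). Cd63, which passed the limit of 5 FPKM only through the Brg1-sufficient group, was at 8 and 11.4, then at 2.62 and 2.92 FPKM (log2 fold change -1.49, SE 0.240, adjusted p = 0.0995 from limma). Both Brg1-deficient libraries were below both controls in each of the 3, as in 20.9% of all genes above 5 FPKM. These 3 were picked by the list criteria in the same libraries, so their separation adds nothing to that call.

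Of the 13 genes that build selectin ligands, 10 were tested, with a median log2 fold change of 0.02. Gcnt1, which makes the core 2 branch of O-glycans on PSGL-1, was higher by the list criteria, at 16.5 and 23.0 FPKM, then at 32.1 and 35.3 FPKM (log2 fold change 0.76, adjusted p = 0.231 from limma). B4galt1, a galactosyltransferase, was lower, at 41.0 and 25.1, then at 13.5 and 15.8 FPKM (log2 fold change -1.08, adjusted p = 0.191 from limma). The fucosyltransferase gene Fut4 was at 2.10 and 3.46, then at 0.62 and 0.38 FPKM, and Fut7 stayed at or under 0.64 FPKM. Of 14 genes of integrin and CD44 ligands, 5 were tested and none met the list criteria or had an unadjusted p under 0.05. Those with the largest differences, Lama4, Lamc1 and Fn1, had log2 fold changes of -0.67, 0.57 and -0.43, and their highest value was 5.14 FPKM.

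**Figure D5:**
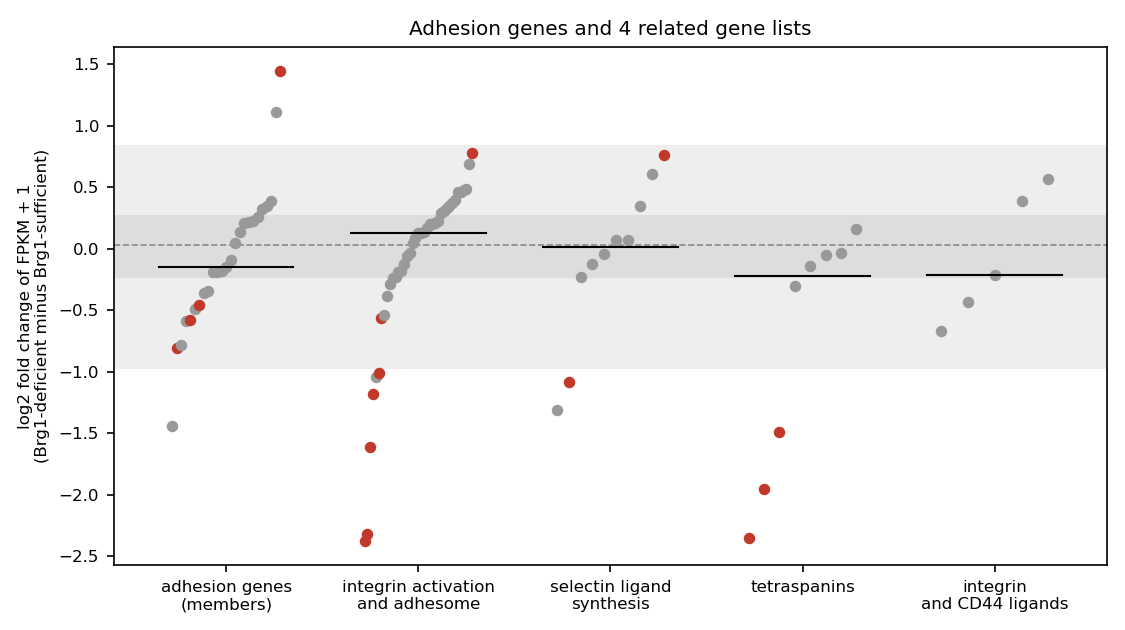
Log2 fold change of FPKM + 1 for each tested gene of the adhesion set and of the 4 related lists, sorted within a list. Red marks genes that met the list criteria and black lines the medians, from -0.22 for tetraspanins to 0.13 for the adhesome. The dark and light bands hold the middle 50% and 90% of all genes tested, with limits of -0.23 and 0.27 and of -0.97 and 0.84.

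Marker genes of 12 cell types were read beside these results. All 10 ILC3 markers were tested, and Il23r, the IL-23 receptor gene, was at 268 and 247 FPKM, then at 227 and 209 FPKM. The 10 markers of ILC1s and NK cells had overlapping sums of 206 and 362 and of 490 and 276 FPKM. Ncr1 (NKp46), lower by the list criteria, was at 31.3 and 35.5, then at 5.37 and 6.02 FPKM. Gzma (granzyme A), higher by the list criteria, was at 50.8 and 103, then at 397 and 218 FPKM. ILC2 markers summed to 299 and 195, then to 114 and 140 FPKM, with Gata3 the highest. By the list criteria 4 of them (Il5, Il4, Klrg1 and Areg) were lower and 1 (Hpgds) was higher. The shares among all genes above 5 FPKM were 7.08% and 6.25%. Il5, Il4 and Klrg1 passed the limit of 5 FPKM only through the Brg1-sufficient group. Il5 was at 24.8 and 1.64, then at 0.32 and 0.06 FPKM, so its high mean came from Brg1-sufficient library 1. Hpgds, which passed that limit only through the Brg1-deficient group, was at 2.31 and 6.61, then at 20.6 and 19.9 FPKM. T cell markers summed to 135 and 59.6, then to 34.6 and 45.2 FPKM, with Cd4 the highest. By the list criteria Cd3e, Cd3g and Cd4 were lower and none was higher, beside the same shares. B cell markers summed to 9.90 and 10.7, then to 2.54 and 1.69 FPKM, of which Cd79b held the most. Cd79b was lower by the list criteria, and the other 4 stayed under 1 FPKM in every library. The paper describes Rag1-/- mice, the source of both groups, as lacking T and B cells. Mast cell markers summed to 10.0 and 7.96, then to 6.71 in both. Macrophage and dendritic cell markers had overlapping sums of 191 and 365 and of 122 and 304 FPKM, with Lyz2 the highest. Of that list, Zbtb46 and Adgre1 were lower by the list criteria and none was higher. Zbtb46 was at 40.4 and 31.1, then at 12.2 and 7.51 FPKM. Sums also overlapped for neutrophils and eosinophils (3.80 to 5.26 FPKM), megakaryocytes and platelets (4.59 to 9.87 FPKM) and fibroblasts (10.7 to 14.8 FPKM). The part of these shifts in the adhesion gene results was not tested.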

How the data were processed

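RNA of sorted ILC3s was sequenced in 2 Brg1-sufficient and 2 Brg1-deficient libraries, described in the labels and methods as biological duplicates. The authors mapped reads to GRCm38.p5 with STAR 2.5, estimated levels with RSEM 1.2 (GENCODE M16 genes) and deposited them as FPKM, with a value for each gene and library. The nearly equal sorted values are those that quantile normalization gives, a step the methods do not name. Counts were not used here, so depth per library is unknown and the edgeR test of the study was replaced.

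From the FPKM values, limma 3.58.1 in R 4.3.3 (lmFit, then eBayes with a trend) was run on log2(FPKM + 1) over 14739 genes, with Benjamini-Hochberg adjustment over all of them, and was tested on simulated data. Positions came from GENCODE M21 (GRCm38), in which all 41 entries were found by identifier. The members and gene lists were chosen with earlier results of these data known. All 40 members were named or counted. From the related lists, the genes meeting the list criteria and the 3 with the largest difference in each list were named. Alternatives were the replicate number as a block, log2(FPKM + 0.1), no filter, a mean FPKM above 5, limma without trend, quantile normalization, and leaving out each library. An item of the study's design is not reported here.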

Additional observations from a re-analysis of the deposited data

How the results depend on the processing

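When replicate numbers entered as a replicate block, 1 adhesion gene was lower (Itgav, adjusted p = 0.0454) and 1 higher (Itgb4, adjusted p = 0.0165) at an adjusted p under 0.05 from limma, in place of 0 and 0. By the list criteria the count of lower adhesion genes with the block was 3 as without it, but Itgb1 was lost and Icam1 (adjusted p = 0.233) gained. All genes so called numbered 248 lower (1.68%) and 150 higher (1.02%). In the related lists, 7 were lower and 1 higher in place of 3 and 0. The departures of same-numbered libraries from their groups' means had a correlation of -0.000386 over genes, and neither labels nor methods say that the numbers pair the libraries. Without a filter on low FPKM, the list criteria gave 1 lower adhesion gene in place of 3, and 5 lower and 1 higher genes of the related lists in place of 10 and 2. The 3 calls at an adjusted p under 0.05 in the related lists became 0 without the filter, where more genes were tested, and 0 with limma without trend, where the cause was not tested. With the filter at a mean FPKM above 5, which tests fewer genes, 6 adhesion genes in place of 10 were lower with no overlap. A pseudocount of 0.1 changed none of these counts by over 1.5 times. Quantile normalization of values whose ranks were already nearly equal bears on nothing.

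Leaving out each library in turn leaves a group with a lone library, assumed to vary like the others. A tested gene whose groups do not overlap with all libraries cannot overlap with fewer. Counts of genes with no overlap therefore cannot show whether the separation is stable when a library is left out. The matching share of all genes is not given for these fits. Adhesion genes that met the list criteria then numbered 0 to 2 lower and 0 to 3 higher, and those with no overlap 11 to 15 lower and 8 to 13 higher. Genes of the related lists met the list criteria in 3 to 6 cases as lower and in 0 to 10 as higher, with 0 lower at an adjusted p under 0.05. Log2 fold changes that changed sign ranged from -0.37 to 0.82 for Itga3, -0.33 to 0.02 for Itgb2, -0.07 to 0.17 for Itgb7, -0.27 to 0.09 for Vcam1, -0.43 to 0.06 for Pecam1, -0.44 to 0.38 for Tln1 and -0.29 to 0.16 for Fermt3. Those of Itgav (-0.96 to -0.66), Itga4 (-0.69 to -0.47), Itgb1 (-0.53 to -0.39) and Itgb4 (1.13 to 1.77) did not, which their separate groups fix. Depth is unknown, and genes near 1 FPKM have intervals that span more than 1 log2 unit.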
